A study of Homo sapiens with 8 samples.

Results

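Long intergenic noncoding RNAs (lincRNAs) are transcripts of their own genes that code for no known protein. The 365 lincRNAs described here are the genes with the GENCODE v29 gene type lincRNA and a mean of at least 1 FPKM over 8 libraries. They are 365 of the 2644 lincRNA genes and of the 31721 genes in the expression table. GAS5 and genes with symbols that start with SNHG, small nucleolar RNA host genes of which 5 also reached this mean, were left out. Other hosts of small nucleolar RNAs were not looked for and may be among the 365. FPKM, the unit of the deposited values, is fragments corrected for exon length and sequencing depth. Members were thus chosen by their measured mean level, and no test is made of that level.

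The cells were A2780, an established human ovarian carcinoma line, kept for 24 hours with olaparib plus palbociclib (the combination), with palbociclib, with olaparib, or with DMSO, the solvent control. Palbociclib blocks CDK4 and CDK6, which drive cells out of G1, and olaparib blocks the repair enzymes PARP1 and PARP2. Each group had 2 libraries of polyadenylated RNA, described as biological repeats. Separate cultures are not stated, so the spread behind the p-values may be technical, and doses are not stated either. A single line was used, and its RNA was measured in bulk, so fewer cells that make a transcript and less of it per cell cannot be told apart.

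Library depth, recovered from the FPKM steps, ran between 20559498 and 34047175 reads, and a lincRNA had a median of 60 reads in a library. Of the 365 lincRNAs, 49 had a median below 20 reads. The leukocyte markers CD14 (0.0227 to 0.0725 FPKM) and ITGAM (0.00543 to 0.0323 FPKM) and the summed endothelial markers PECAM1, CDH5 and VWF (0.0037 to 0.0169 FPKM) were near 0 in every library. The epithelial markers EPCAM, CDH1, KRT8, KRT18 and KRT19 summed to 1.18 and 1.40 FPKM with the combination, 1.12 and 1.10 FPKM with palbociclib, 0.645 and 0.528 FPKM with olaparib and 0.453 and 0.423 FPKM with DMSO. The ovarian carcinoma markers PAX8, MUC16 and MSLN summed to 0.746 and 0.558 FPKM with the combination, 0.467 and 0.526 FPKM with palbociclib, 0.325 and 0.280 FPKM with olaparib, and 0.268 and 0.205 FPKM with DMSO. Of these PAX8 and MUC16 were at or near 0 and MSLN lay between 0.205 and 0.743 FPKM, while VIM, a mesenchymal filament gene, lay between 237 and 350 FPKM. The mesenchymal list of VIM, CDH2 and FN1 summed to 342 and 342 FPKM with the combination, 353 and 329 FPKM with palbociclib, 246 and 239 FPKM with olaparib, and 251 and 255 FPKM with DMSO. VIM made up nearly all of these sums. CDH2 lay between 2.37 and 3.07 FPKM, and FN1 was low, between 0.0959 and 0.289 FPKM. No ovarian or epithelial marker reached a mean of 1 FPKM, and the part of these markers in the results below was not tested.

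A lincRNA can act as the RNA itself, as a scaffold for a nuclear body or a decoy for a protein, or its transcription can act on a neighbouring gene. MALAT1 lies in nuclear speckles, the storage sites of splicing factors. NEAT1 is the architectural RNA of paraspeckles, nuclear bodies that hold RNA-binding proteins. NORAD is a cytoplasmic decoy for Pumilio proteins such as PUM2, which bind a short UGUA-containing site in messenger RNAs and promote their decay. PURPL is a p53-induced transcript known to restrain basal p53 levels. Other lincRNAs are the primary transcripts of microRNAs.

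Sequences of 3 of these genes are shown first. The promoter window of PURPL (RefSeq, GRCh38.p14, chr5:27472042-27472341, plus strand) is shown because PURPL had the highest log2 fold change with olaparib. Capitals mark a pair of p53 half-sites with no gap between them.
PURPL promoter: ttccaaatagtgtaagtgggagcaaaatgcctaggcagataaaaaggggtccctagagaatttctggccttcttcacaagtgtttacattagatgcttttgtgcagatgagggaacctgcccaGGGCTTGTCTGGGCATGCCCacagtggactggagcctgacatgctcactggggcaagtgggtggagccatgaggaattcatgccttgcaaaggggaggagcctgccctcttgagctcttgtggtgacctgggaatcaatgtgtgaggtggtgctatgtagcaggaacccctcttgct
RefSeq held promoter windows of 300 bases, with 250 before and 50 after the start, for 142 of the 365 lincRNAs. The p53 decamer was searched on both strands. At least 1 decamer was found in 11 of the 142 lincRNA windows (7.75%), against 2329 of all 35116 windows (6.63%). A pair of adjacent decamers was found in 1 of the 142 lincRNA windows, that of PURPL, and in 6 of all 35116 (0.0171%). The cell cycle element CHR, TTTGAA on either strand, was in 19 of the 142 lincRNA windows (13.4%), against 15.2% of all windows. The E2F-like words TTTCGCGC, TTTGGCGC, TTTCCCGC and TTTGCCGC, on either strand, were in 5 (3.52%), against 3.31%. A match is a description of these letters and not of a bound site.

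NORAD, the most abundant of the 365, carries the Pumilio site TGTANATA 15 times in its annotated transcript of 5339 bases, or 2.81 per kilobase. The other lincRNAs held 0.0895 per kilobase over their pooled length, and 329 of the 365 held none. A pair of short lincRNAs had more per kilobase, AL451064.1 with 2 sites in 471 bases and AC105924.1 with 1 site in 339 bases. The first, the middle and the last of the NORAD sites are shown by transcript position (750 to 779, 2455 to 2484 and 4588 to 4617), with the site in capitals, because this repeat is what the decoy role rests on.
NORAD site 1: tggaaggcctgTGTATATAatatgaaaaag
NORAD site 8: gaataacacttTGTAAATAgcttttaaaaa
NORAD site 15: attagcctattTGTAAATAcctttgttata
MALAT1 had the highest log2 fold change with palbociclib. Its mature end is not polyadenylated, and a triple helix of U-rich and A-rich stretches stabilizes it in place of a tail, which bears on how polyA selection samples it. An end of this kind is also known for a form of NEAT1, and the other lincRNAs were not searched for it. The values used here are per gene and do not separate the forms of a transcript. The stretches stand in capitals in transcript positions 8237 to 8369 of the annotated transcript.
MALAT1 3′ region: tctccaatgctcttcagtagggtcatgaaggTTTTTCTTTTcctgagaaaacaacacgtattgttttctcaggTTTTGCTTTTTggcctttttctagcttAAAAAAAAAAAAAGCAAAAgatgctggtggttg

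More lincRNAs were higher than lower after palbociclib and after the combination, and the same held for the other long noncoding classes, while the protein-coding genes leaned the other way in the deposited scaling. Against DMSO, 110 of the 365 lincRNAs rose and 30 fell with the combination (30.1% and 8.22%), in a table where 21.5% of all 12443 tested genes were called higher and 35.3% lower (56.8% either way). With palbociclib 80 rose and 27 fell (21.9% and 7.40%), beside 18.7% higher and 31.4% lower over all tested genes (50.1% either way). With olaparib 10 rose and 1 fell, beside 4.13% and 10.5% (14.6% either way). The calls are limma adjusted p below 0.05 on log2(FPKM + 1), adjusted over all tested genes. Fold changes on this scale understate the change of weakly expressed genes.

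The share of lincRNAs called higher was thus near the background with palbociclib and above it with the combination. In both the share called lower was below the background, which was not matched for level. Among the 179 lincRNAs at a mean of 1 to 2 FPKM, the combination lowered 5.59% and raised 21.79%, and palbociclib lowered 5.03% and raised 14.53%. Among the 58 at 5 FPKM or more, the combination lowered 18.97% and raised 39.66%, and palbociclib lowered 17.24% and raised 31.03%. The part of level in the gap to the background was not tested. The median log2 fold change of the 365 was 0.15 with the combination, 0.08 with palbociclib and 0.03 with olaparib, against medians over all tested genes of −0.06, −0.05 and −0.03. Among the 10175 protein-coding genes, the combination raised 2142 and lowered 4144. Of the 700 tested genes of other long noncoding classes, the combination raised 180 and lowered 70 (25.7% and 10%, median 0.09) and palbociclib raised 143 and lowered 71 (20.4% and 10.1%, median 0.04). The lean towards higher calls depends in size on the scaling. With values rescaled to a common total of 1000000 the combination raised 144 lincRNAs and lowered 22 and palbociclib raised 103 and lowered 18, while after quantile normalization the splits were 90 with 48 and 66 with 34. The rescaling moved the median of all genes with the combination to 0.06 and that of the lincRNAs to 0.32, and with it 4068 of all tested genes were called higher and 3014 lower.

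**Figure D1:**
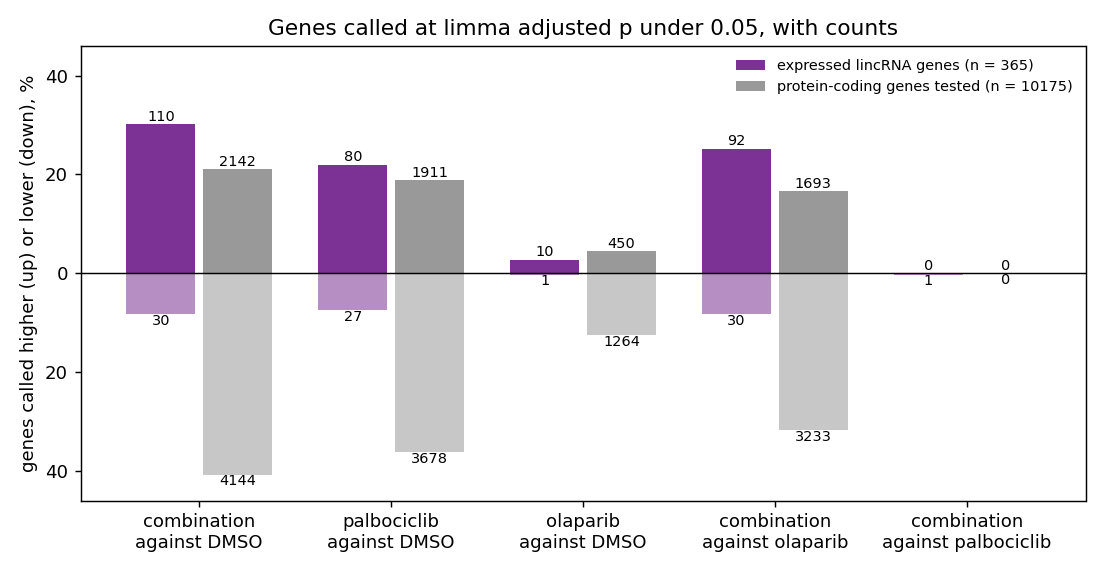
Percent of genes called higher (bars above 0) and lower (bars below 0) at a limma adjusted p below 0.05, for the 365 lincRNAs (purple) and the 10175 tested protein-coding genes (grey), in 5 comparisons, with the number called at each bar. With the combination 110 lincRNAs were called higher and 30 lower, and, in the deposited scaling, 2142 protein-coding genes higher and 4144 lower.

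Because a gene could join the group through the condition in which it is high, the 282 lincRNAs with every group mean at 1 FPKM or more were counted apart from the other 83. Of the 282, the combination raised 87 and lowered 23 (30.9% and 8.16%), and palbociclib raised 64 and lowered 22 (22.7% and 7.80%). The same filter was not applied to all tested genes, so these shares have no background of their own. The lincRNAs took 0.493 ± 0.017% of the summed FPKM with the combination, 0.478 ± 0.024% with palbociclib, 0.414 ± 0.007% with olaparib and 0.381 ± 0.007% with DMSO (SD, n = 2 each). Without MALAT1 and NEAT1 these shares were 0.475%, 0.445%, 0.405% and 0.375%. In these shares the treated and DMSO libraries did not overlap, and 2 against 2 libraries cannot give a two-sided exact permutation p below 0.3333. Part of the change lies in the total over all genes, which was lower with the drugs. This total was 264453 and 271980 FPKM with the combination, 275941 and 274426 with palbociclib, 281013 and 284708 with olaparib, and 295656 and 295620 with DMSO. The lincRNA sums averaged 1322, 1315, 1172 and 1127 FPKM in the same order. Of the 365, 69 were higher and 21 lower both with palbociclib and with the combination, comparisons that share the DMSO libraries, and 187 were called in none of the 6 comparisons. Counts over several comparisons, here and below, were not made over all tested genes. They therefore do not show whether the lincRNAs differ from the rest of the table.

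**Figure D2:**
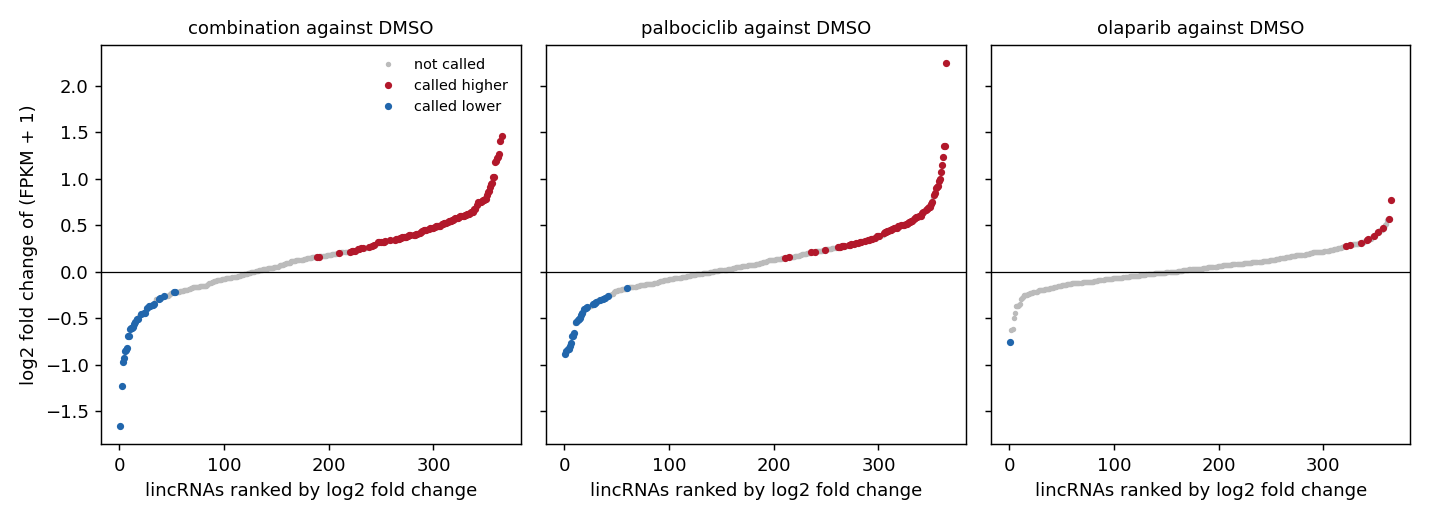
Log2 fold change on the log2(FPKM + 1) scale of each of the 365 lincRNAs against DMSO, ranked within each panel, for the combination, palbociclib and olaparib. Red points are called higher and blue points lower at a limma adjusted p below 0.05, with 110 red and 30 blue for the combination, 80 and 27 for palbociclib, and 10 and 1 for olaparib.

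The RNAs of nuclear bodies were higher in every library that had received palbociclib. MALAT1 (chr11:65497688-65506516, plus strand) measured 54.8 and 24.6 FPKM with the combination, 50.05 and 114 FPKM with palbociclib, 18.95 and 23.3 FPKM with olaparib, and 16.2 and 14.0 FPKM with DMSO. All treated libraries lay above both DMSO libraries, and the 2 palbociclib libraries differed from each other by more than olaparib differed from DMSO. MALAT1 rose with palbociclib (log2 fold change 2.25 ± 0.44, SE, limma adjusted p = 0.0051), and by 1.67 without the higher palbociclib library (adjusted p = 0.027). With the combination the log2 fold change was 1.23 ± 0.44 (limma adjusted p = 0.0483). Leaving out combination replicate 1 brought it to 0.67 (adjusted p = 0.23), and it also missed the threshold without either DMSO or either olaparib library. With olaparib the log2 fold change was 0.45 ± 0.44 (limma adjusted p = 0.526).

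NEAT1 (chr11:65422774-65445540, plus strand) measured 9.51 and 8.15 FPKM with the combination, 7.64 and 8.90 FPKM with palbociclib, 5.39 and 4.84 FPKM with olaparib, and 4.82 and 3.68 FPKM with DMSO. The libraries with palbociclib, alone or combined, did not overlap with the others. NEAT1 rose with the combination (log2 fold change 0.91 ± 0.12, limma adjusted p = 0.000701) and with palbociclib (0.83 ± 0.12, adjusted p = 0.00149), in every leave-one-out fit. With olaparib it did not pass the test (0.23 ± 0.12, adjusted p = 0.251), but passed as a rise with voom on the recovered reads (0.33, adjusted p = 0.015). FRMD8, the coding gene nearest to NEAT1, did not pass the test with any treatment. Its log2 fold change was 0.08 ± 0.10 with the combination (adjusted p = 0.549) and 0.09 ± 0.10 with palbociclib (adjusted p = 0.484).

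The messenger RNAs of the proteins that share these bodies fell. Of 15 paraspeckle protein genes, 14 fell with the combination, 14 with palbociclib and 4 with olaparib. Of all tested genes, 35.3%, 31.4% and 10.5% were called lower in these 3 comparisons, which is the background for this list and those that follow. SFPQ, an essential paraspeckle protein, averaged lower with a log2 fold change of −0.66 ± 0.03 with the combination (limma adjusted p = 1.62e-05) and −0.59 ± 0.03 with palbociclib (adjusted p = 4.28e-05). NONO, its dimer partner, did not pass the test with the combination (−0.07 ± 0.04, adjusted p = 0.134). Of 8 speckle genes, 7 fell with each of the combination and palbociclib and 5 with olaparib, among them the splicing factors SRSF1 (−0.80 ± 0.04 with the combination) and SRSF3 (−0.74 ± 0.04). SRRM2, a scaffold of speckles, was the exception at 0.07 ± 0.04 (adjusted p = 0.183).

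Of 16 genes of the nuclear exosome and its adaptors, the machinery that degrades nuclear noncoding RNA, 14 fell with the combination, 13 with palbociclib and 10 with olaparib. EXOSC9, a core subunit, had a log2 fold change of −0.76 ± 0.04 with the combination (limma adjusted p = 1.57e-05), and MTREX, the helicase that feeds the exosome, of −0.45 ± 0.05 (adjusted p = 0.000258). None of the 43 listed genes, NORAD partners included, was called higher in the deposited scaling, while with the combination 3 were called higher and 28 lower after quantile normalization and 2 higher and 33 lower after rescaling to a common total. The olaparib counts rest on single libraries, since 20 of the 43 genes fell in the full fit and 0 without olaparib replicate 2 or without either DMSO library.

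**Figure D3:**
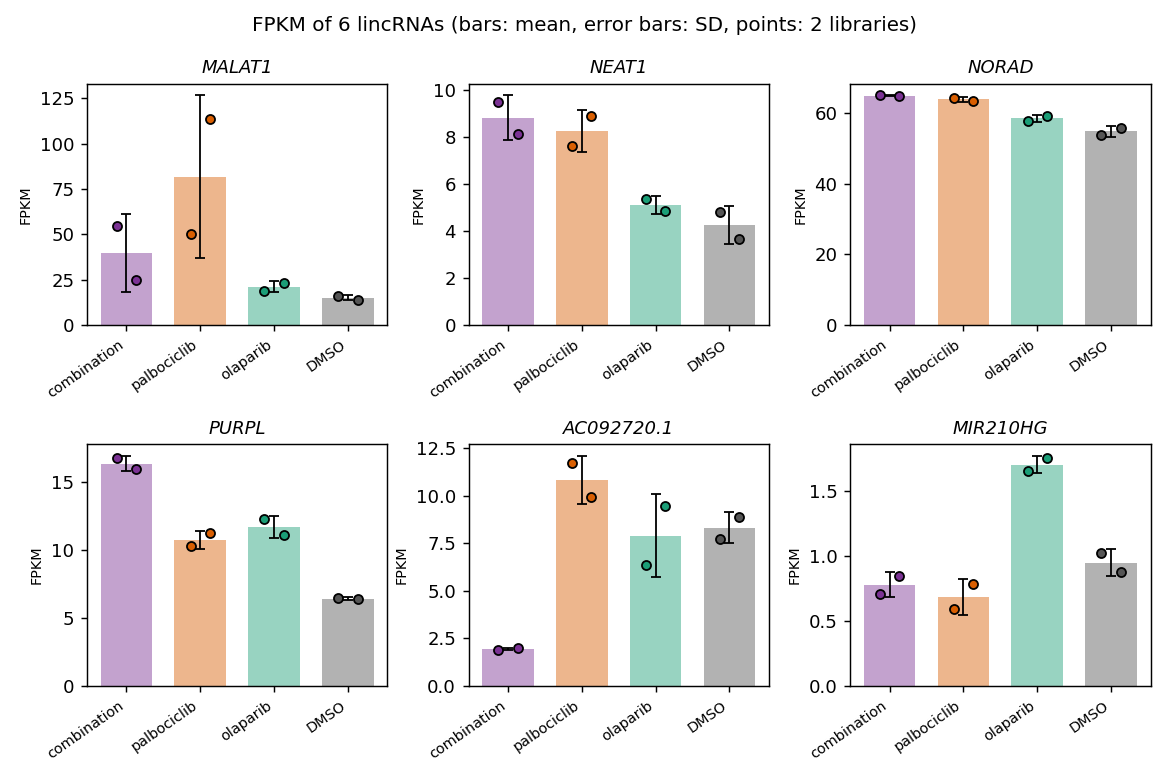
FPKM of MALAT1, NEAT1, NORAD, PURPL, AC092720.1 and MIR210HG by group, with a bar for the mean, an error bar for the SD over 2 libraries and a point for each library. The 2 palbociclib libraries of MALAT1 lie at 50.05 and 114 FPKM, and AC092720.1 is lowest in the combination libraries, at 1.89 and 1.98 FPKM.

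NORAD (chr20:36045622-36050960, minus strand), a decoy for Pumilio proteins as described with its sites above, was the most abundant of the 365. It measured 65.1 and 64.9 FPKM with the combination, 64.4 and 63.5 FPKM with palbociclib, 57.8 and 59.3 FPKM with olaparib, and 53.8 and 55.9 FPKM with DMSO. The groups with palbociclib lay above the others without overlap. The rise passed the test with the combination (log2 fold change 0.24 ± 0.03, limma adjusted p = 0.000915) and with palbociclib (0.22 ± 0.03, adjusted p = 0.00197). With olaparib it was 0.09 ± 0.03 (adjusted p = 0.115). The size depended on the scaling. With the combination the log2 fold change was 0.49 after quantile normalization, 0.38 after rescaling to a common total and 0.40 with voom on the recovered reads, and with palbociclib it was 0.39, 0.32 and 0.34. The olaparib value passed the test after rescaling (0.16, adjusted p = 0.0322) and with voom (0.15, adjusted p = 0.00579) and missed it after quantile normalization (0.15, adjusted p = 0.0546). Its protein partners PUM2, RBMX and KHDRBS1 fell with the combination and with palbociclib, and of these RBMX fell with olaparib.

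PURPL (chr5:27472292-27496401, plus strand) was 1 of 6 lincRNAs called higher with all 3 treatments, and was highest with both drugs. It measured 16.8 and 16.0 FPKM with the combination, 10.3 and 11.2 FPKM with palbociclib, 12.2 and 11.1 FPKM with olaparib, and 6.49 and 6.35 FPKM with DMSO. The combination lay above each single drug, and each single drug above DMSO, with no overlap. The log2 fold change against DMSO was 1.23 ± 0.06 with the combination (limma adjusted p = 1.62e-05), 0.66 ± 0.06 with palbociclib (adjusted p = 0.000191) and 0.77 ± 0.06 with olaparib (adjusted p = 0.00402). The combination exceeded olaparib by 0.45 ± 0.06 (adjusted p = 0.00121), and the difference of 0.56 ± 0.06 to palbociclib missed the threshold (adjusted p = 0.0572). That difference passed after quantile normalization (0.62, adjusted p = 0.0369), after rescaling to a common total (0.63, adjusted p = 0.0466) and with voom on the recovered reads (0.63, adjusted p = 1.38e-05), and missed it in every leave-one-out fit (adjusted p 0.0666 to 0.317). Its departure from additivity, the effect of olaparib beside palbociclib minus that beside DMSO, was −0.21 ± 0.09 (adjusted p = 0.464).

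CDKN1A, the p53 target that codes for the kinase inhibitor p21, is given beside it. CDKN1A measured 24.5 and 28.1 FPKM with the combination, 18.7 and 17.8 FPKM with palbociclib, 30.5 and 31.7 FPKM with olaparib, and 12.4 and 12.7 FPKM with DMSO. It was highest with olaparib alone, where PURPL was highest with the combination. Of the other p53-linked genes listed, PINCR, LINC02303 and MIR34AHG had means below 1 FPKM and were not members.

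Olaparib raised 9 lincRNAs besides PURPL, and 6 of its 10 also rose with palbociclib and with the combination. MIR210HG (chr11:565660-568457, minus strand), the host of miR-210, was not among those 6. It measured 0.708 and 0.845 FPKM with the combination, 0.589 and 0.784 FPKM with palbociclib, 1.66 and 1.75 FPKM with olaparib, and 1.02 and 0.875 FPKM with DMSO. The olaparib libraries stood above all others. MIR210HG rose with olaparib (log2 fold change 0.47 ± 0.10, limma adjusted p = 0.0306) and was lower with the combination than with olaparib (−0.61 ± 0.10, adjusted p = 0.0036), a difference called in every leave-one-out fit. Its rise with olaparib was lost on leaving out either olaparib or either DMSO library (0.42 to 0.53 on the log2 scale over all 8 fits, adjusted p up to 0.16). KIF25-AS1, antisense to KIF25, had the same order, with 3.02 and 2.99 FPKM with olaparib against 2.06 and 2.22 FPKM with DMSO (0.35 ± 0.08, adjusted p = 0.0334). It was lower with the combination than with olaparib (−0.35 ± 0.08, adjusted p = 0.0109). The olaparib call of KIF25-AS1 was lost on leaving out the same libraries (adjusted p up to 0.156) and the other without combination replicate 1 (adjusted p = 0.0545).

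The other olaparib calls were these. C17orf82 (LINC02875) measured 4.19 and 4.90 FPKM with olaparib and 3.34 and 2.90 FPKM with DMSO (0.43 ± 0.08, limma adjusted p = 0.0212). LINC01770, divergent from VWA1, measured 2.06 and 3.09 FPKM with olaparib and 1.55 and 1.23 FPKM with DMSO (0.57 ± 0.14, adjusted p = 0.0406). RFX3-AS1, AC007383.2 and AL133215.2 rose by 0.34, 0.39 and 0.31 on the log2 scale (adjusted p = 0.0447, 0.0381 and 0.0407). AC110285.2 and AC102953.2, named after their values were seen, completed the 10. The single lower call was CR392039.3, with 11.7 and 10.96 FPKM with olaparib against 22.9 and 17.0 FPKM with DMSO (−0.75 ± 0.16, adjusted p = 0.0295), which fell with palbociclib and the combination too. The count of olaparib calls was 0 without DMSO replicate 1, 1 without DMSO replicate 2 or olaparib replicate 2, 3 without olaparib replicate 1 and 7 without either palbociclib library. The PURPL call with olaparib was lost without DMSO replicate 1 (adjusted p = 0.0505), and those of RFX3-AS1 and AL133215.2 in all 8 leave-one-out fits (adjusted p 0.0513 to 0.199).

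A group of 3 lincRNAs on chromosome 2 rose together wherever palbociclib was given. AC009229.2 (chr2:38132637-38138946, minus strand), AC009229.3 (chr2:38193348-38193629, plus strand) and AC009229.1 (chr2:38203363-38239590, minus strand) span 106954 bases, and the nearest lies 22735 bases from the start of CYP1B1. CYP1B1 codes for a cytochrome P450 that oxidizes oestrogens and polycyclic aromatics. AC009229.1 measured 6.68 and 6.55 FPKM with the combination, 6.08 and 6.50 FPKM with palbociclib, 2.06 and 2.42 FPKM with olaparib, and 2.18 and 1.58 FPKM with DMSO.

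AC009229.2 measured 20.04 and 17.1 FPKM with the combination, 18.7 and 19.7 FPKM with palbociclib, 8.16 and 6.69 FPKM with olaparib, and 8.15 and 7.04 FPKM with DMSO. AC009229.3 measured 19.8 and 13.2 FPKM with the combination, 14.1 and 15.9 FPKM with palbociclib, 6.67 and 3.85 FPKM with olaparib, and 5.999 and 4.56 FPKM with DMSO. In each of the 3 genes every library with palbociclib lay above every library without it. With the combination AC009229.1, AC009229.2 and AC009229.3 rose by 1.41 ± 0.10, 1.19 ± 0.11 and 1.46 ± 0.25 on the log2 scale (limma adjusted p = 4.96e-05, 0.000122 and 0.0022). With palbociclib they rose by 1.35 ± 0.10, 1.24 ± 0.11 and 1.35 ± 0.25 (adjusted p = 0.0001, 0.000168 and 0.00398). None passed the test with olaparib, where the values were 0.18, −0.03 and −0.03. These calls held in every leave-one-out fit.

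The other genes of the locus were measured too. CYP1B1 measured 24.5 and 22.4 FPKM with the combination, 24.4 and 22.8 FPKM with palbociclib, 18.7 and 18.2 FPKM with olaparib, and 18.96 and 18.9 FPKM with DMSO, a rise of 0.31 ± 0.05 with palbociclib (limma adjusted p = 0.00295). Its antisense transcript CYP1B1-AS1 (chr2:38073447-38231651, plus strand) rose by 0.60 ± 0.09 with palbociclib (adjusted p = 0.00131). The span of CYP1B1-AS1 holds AC009229.2 and AC009229.3, the latter on the same strand, and overlaps that of AC009229.1. The lincRNAs thus do not lie apart from this transcript, and its part in their values was not tested. AC009229.4, a gene there of another annotated type (to be experimentally checked, per GENCODE), measured 2.18 and 2.01 FPKM with the combination, 1.59 and 1.76 FPKM with palbociclib, 0.856 and 0.666 FPKM with olaparib, and 0.648 and 0.730 FPKM with DMSO. It rose by 0.66 ± 0.09 with palbociclib (adjusted p = 0.00121) and by 0.88 ± 0.09 with the combination (adjusted p = 0.000248), on a scale that understates the change of a gene at this level. RMDN2, also at this locus, did not pass the test (0.03 ± 0.04, adjusted p = 0.593), and ATL2 fell (−0.33 ± 0.05, adjusted p = 0.00112). AC009229.3 is a single exon of 282 bases with 31 to 143 reads in a library, and the strand setting of the counting is unknown here.

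**Figure D4:**
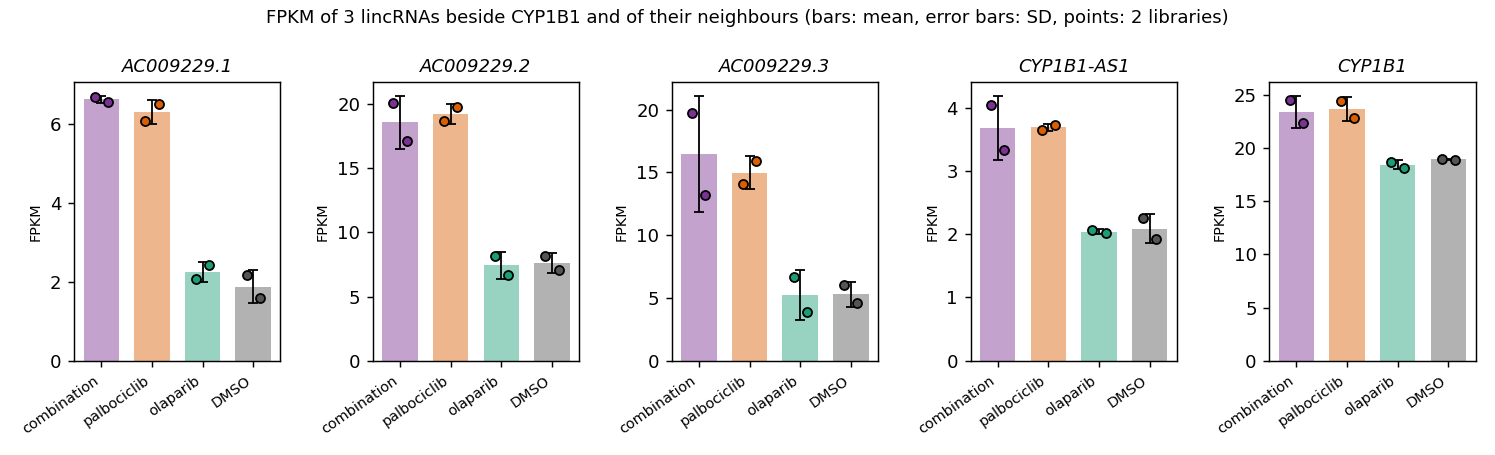
FPKM of AC009229.1, AC009229.2 and AC009229.3, and of CYP1B1-AS1 and CYP1B1 at the same locus, by group, with a bar for the mean, an error bar for the SD over 2 libraries and a point for each library. The 3 lincRNAs rose by 1.19 to 1.46 on the log2 scale with the combination, and CYP1B1 by 0.29.

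AC092720.1 was low only in the combination libraries. This lincRNA (chr16:87492555-87515635, plus strand) starts 510 bases from ZCCHC14, a zinc finger gene, on the opposite strand. It measured 1.89 and 1.98 FPKM with the combination, 11.7 and 9.94 FPKM with palbociclib, 6.37 and 9.43 FPKM with olaparib, and 7.73 and 8.89 FPKM with DMSO. Recovered reads were 56 and 70 with the combination and 341 and 356 with DMSO. Both combination libraries lay below the other 6, which overlapped except that the palbociclib libraries were above all of them.

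Against DMSO, AC092720.1 fell with the combination (log2 fold change −1.66 ± 0.16, limma adjusted p = 0.000144), in every leave-one-out fit. Against olaparib it fell by 1.58 on the log2 scale (adjusted p = 0.000401). With palbociclib alone it did not pass the test (0.34 ± 0.16, adjusted p = 0.112), nor with olaparib alone (−0.08 ± 0.16, adjusted p = 0.754). The palbociclib value did pass as a rise after rescaling to a common total (0.47, adjusted p = 0.0497), with voom on the recovered reads (0.48, adjusted p = 0.00136) and without olaparib replicate 1 or 2 (adjusted p = 0.0218 and 0.0223). It was the only lincRNA called between the combination and palbociclib (−2.01 ± 0.16, adjusted p = 0.0183), a comparison in which 0.0161% of all tested genes were called lower and 0.00804% higher (0.0241% either way). That call was lost when any combination, palbociclib or DMSO library was left out (adjusted p 0.066 to 0.21) and was kept without either olaparib library.

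The departure of AC092720.1 from additivity was −1.92 ± 0.22, with an unadjusted p of 5.8e-05 and a limma adjusted p of 0.144. It passed the threshold with voom on the recovered reads (−2.41, adjusted p = 7.2e-06) and without olaparib replicate 1 (−2.17, adjusted p = 0.03). No lincRNA was called in this comparison by limma, where 0.00804% of all tested genes were called lower and 0% higher. At an unadjusted p below 0.05 there were 37, and voom on the recovered reads called 2. ZCCHC14 itself measured 10.7 and 10.4 FPKM with the combination, 10.6 and 10.6 FPKM with palbociclib, 12.1 and 12.3 FPKM with olaparib, and 12.3 and 12.9 FPKM with DMSO. It fell alike with the combination (−0.24 ± 0.04, adjusted p = 0.00159) and palbociclib (−0.23 ± 0.04, adjusted p = 0.00256), so its order across groups was not that of AC092720.1.

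Between the combination and olaparib, 92 lincRNAs were higher and 30 lower, beside 17% and 27.4% of all tested genes (44.4% either way). After quantile normalization the split was 68 with 36. The highest were the AC009229 genes described above and AP001029.1, and the lowest were AC092720.1 and FAM27C. A single lincRNA was called in opposite directions with the combination and with palbociclib, and was named after its values were seen. CU104787.1 measured 9.90 and 9.29 FPKM with the combination, 5.69 and 5.49 FPKM with palbociclib, 8.19 and 7.01 FPKM with olaparib, and 6.92 and 7.62 FPKM with DMSO. Its values rest on 15 to 29 reads in a library.

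Other lincRNAs that rose with palbociclib are mostly known by clone names. AC007383.2 (INO80D-AS1), which overlaps INO80D on the opposite strand, measured 8.30 and 10.3 FPKM with the combination, 9.43 and 10.01 FPKM with palbociclib, 5.62 and 5.66 FPKM with olaparib, and 4.31 and 3.86 FPKM with DMSO. It rose by 1.08 ± 0.09 on the log2 scale with palbociclib (limma adjusted p = 0.000159). INO80D, a subunit gene of a chromatin remodeller, had a value of −0.10 ± 0.08 (adjusted p = 0.313). LINC00377 measured 1.88 and 1.23 FPKM with the combination, 2.496 and 2.39 FPKM with palbociclib, 0.520 and 0.534 FPKM with olaparib, and 0.843 and 0.619 FPKM with DMSO (palbociclib 0.99 ± 0.14, adjusted p = 0.001). The abundant LINC00839 rose by 0.38 ± 0.05 (adjusted p = 0.000632).

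Short genes among the highest rest on few reads. AP001029.1 measured 6.53 and 8.93 FPKM with the combination, 6.78 and 5.41 FPKM with palbociclib, 2.29 and 3.96 FPKM with olaparib, and 2.197 and 3.02 FPKM with DMSO, from 9 to 39 reads. Its rise with palbociclib (0.98 ± 0.23, limma adjusted p = 0.0103) was lost without palbociclib replicate 1 or DMSO replicate 1 (adjusted p up to 0.0631). AL353803.5 (141 bases) rose by 1.15 ± 0.23 on the log2 scale with palbociclib (limma adjusted p = 0.00562) from 1 to 9 reads in a library. AC084864.1 (305 bases, 2 to 16 reads) was higher with the combination than with olaparib (0.84 ± 0.23, adjusted p = 0.0237), a call lost without the filter on low values and without combination replicate 2 or olaparib replicate 2 (adjusted p up to 0.116).

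Other lincRNAs were lower with the drugs. FAM27C, on chromosome 9, measured 1.71 and 1.93 FPKM with the combination, 2.66 and 3.10 FPKM with palbociclib, 4.86 and 4.50 FPKM with olaparib, and 5.54 and 5.66 FPKM with DMSO. Its 4 groups did not overlap, and it fell with the combination (log2 fold change −1.23 ± 0.07, limma adjusted p = 2.64e-05) and palbociclib (−0.77 ± 0.07, adjusted p = 0.000242). FAM27C belongs to a family of closely similar copies, so its reads are uncertain. AP001505.1 (chr21:44978832-44979274) measured 10.3 and 9.89 FPKM with the combination, 11.1 and 13.02 FPKM with palbociclib, 19.6 and 15.8 FPKM with olaparib, and 21.6 and 18.7 FPKM with DMSO (combination −0.93 ± 0.11, adjusted p = 0.00047).

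AC048341.2 fell by 0.84 on the log2 scale with the combination and AC008764.6, which is divergent from CHERP, by 0.85 (limma adjusted p = 0.00157 and 0.000499). CYP4F26P, annotated as a lincRNA although named as a pseudogene of a cytochrome family, fell by 0.40 with palbociclib (adjusted p = 0.000696). With palbociclib the lowest also held AC026979.2 (DCTN6-DT, −0.89 ± 0.18, adjusted p = 0.00547), AL121658.1 (SLC30A6-DT, −0.85 ± 0.12, adjusted p = 0.00115) and AC015912.3 (−0.83 ± 0.20, adjusted p = 0.0115). All of these 3 start beside a coding gene on the other strand, and the call of AC015912.3 was lost without palbociclib replicate 1 or DMSO replicate 2 (adjusted p up to 0.0698). AL596094.1, AC087741.2 and AC141002.1, with 1 to 18 reads in a library, were lower with the combination than with olaparib, with log2 differences of −0.84, −0.59 and −0.84 (adjusted p = 0.0325, 0.0294 and 0.00225). The call of AL596094.1 was lost without either combination library or olaparib replicate 1 and that of AC087741.2 without combination replicate 2 or either olaparib or DMSO library (adjusted p up to 0.155).

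Among the remaining abundant genes, BAIAP2-DT rose by 0.39 ± 0.07 with the combination (limma adjusted p = 0.0026) while BAIAP2, from which it diverges, did not pass the test (−0.10 ± 0.06, adjusted p = 0.218). AC022031.1, LINC00106 and AC008443.2 rose with the combination by 0.52, 0.62 and 0.28 (adjusted p = 0.0109, 0.0183 and 0.0363), and none of the 3 passed the test with palbociclib. AL391121.1 (TRIM8-DT) passed in no comparison. Of the X-linked genes, JPX, an activator of XIST, rose with the combination (0.40 ± 0.06, adjusted p = 0.00146) and palbociclib (0.29 ± 0.06, adjusted p = 0.00798), and XIST, the RNA that silences the inactive X, rose with the combination (0.27 ± 0.07, adjusted p = 0.0177). Without DMSO replicate 2 the calls of AC022031.1, LINC00106, AC008443.2 and XIST with the combination and of JPX with palbociclib were lost. Other losses were those of LINC00106, AC008443.2 and XIST without combination replicate 1, AC008443.2 without combination replicate 2 and JPX without palbociclib replicate 1. Adjusted p over these fits reached 0.0646 for AC022031.1, 0.106 for LINC00106, 0.194 for AC008443.2, 0.0944 for XIST and 0.0526 for JPX.

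MicroRNA hosts were 10 of the 365, with 16 microRNA genes. RefSeq mature sequences are shown for the 4 hosts that passed the test against DMSO, 5′ to 3′ with the seed (bases 2 to 8) in capitals, because the seed decides which messages a microRNA pairs with.
hsa-miR-210-3p: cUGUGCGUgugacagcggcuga
hsa-let-7a-5p: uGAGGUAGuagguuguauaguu
hsa-let-7b-5p: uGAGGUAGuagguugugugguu
hsa-miR-137-3p: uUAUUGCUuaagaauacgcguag
hsa-miR-22-3p: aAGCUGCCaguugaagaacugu
The let-7a and let-7b forms share the seed GAGGUAG, that of the let-7 family, known to target RAS and cell cycle messages, and are both held in MIRLET7BHG. MIRLET7BHG measured 1.66 and 1.32 FPKM with the combination, 1.38 and 1.60 FPKM with palbociclib, 1.16 and 1.29 FPKM with olaparib, and 1.01 and 0.975 FPKM with DMSO. Its rise with palbociclib was 0.32 ± 0.10 (limma adjusted p = 0.0332), lost without either palbociclib or either DMSO library (0.26 to 0.38 over the 8 fits, adjusted p up to 0.16). Levels of a host gene are not levels of its mature microRNA, which polyA libraries do not measure.

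MIR137HG, named after its values were seen, holds miR-137, a regulator of neuronal differentiation, and measured 4.59 and 4.74 FPKM with the combination, 3.97 and 4.66 FPKM with palbociclib, 2.95 and 2.99 FPKM with olaparib, and 2.70 and 2.79 FPKM with DMSO. It rose by 0.60 ± 0.07 with the combination (limma adjusted p = 0.000321) and by 0.50 ± 0.07 with palbociclib (adjusted p = 0.000998), but overlaps DPYD on the same strand. MIR22HG, the host of miR-22, measured 3.53 and 3.52 FPKM with the combination, 2.96 and 2.94 FPKM with palbociclib, 2.92 and 3.16 FPKM with olaparib, and 3.01 and 3.07 FPKM with DMSO. It rose by 0.16 ± 0.05 with the combination (adjusted p = 0.032), a call kept in 3 of the 8 leave-one-out fits and lost without either combination library, either DMSO library or palbociclib replicate 1 (adjusted p up to 0.13). MIR4435-2HG, CYTOR, MIR503HG, MIR193BHG, MUC20-OT1 and AC009065.4 passed in no comparison against DMSO.

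Of the growth-linked genes, EPB41L4A-AS1, transcribed against EPB41L4A, measured 7.92 and 8.51 FPKM with the combination, 7.97 and 7.97 FPKM with palbociclib, 5.37 and 5.84 FPKM with olaparib, and 5.21 and 5.48 FPKM with DMSO. It rose by 0.54 ± 0.05 with the combination (limma adjusted p = 0.000176) and by 0.50 ± 0.05 with palbociclib (adjusted p = 0.000367). PVT1, the neighbour of MYC, measured 1.51 and 1.55 FPKM with the combination and 1.20 and 1.08 FPKM with DMSO (0.24 ± 0.09, adjusted p = 0.0487), a call lost in all 8 leave-one-out fits (adjusted p 0.0539 to 0.201). Several known lincRNAs of the lists were outside the group by level, with means of 0.0639 FPKM for MIAT, 0.43 FPKM for FTX and 0.689 FPKM for MIR99AHG.

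The word intergenic covers several positions. Of the 365, 79 had an exon that overlaps another gene, 63 of them on the opposite strand, and 83 started within 2000 bases of a coding gene in the divergent direction. The divergent lincRNAs behaved less one-sidedly: palbociclib raised 7 and lowered 8 of the 83, and raised 73 and lowered 19 of the other 282. With the combination the counts were 13 higher and 9 lower of the 83, and 97 higher and 21 lower of the 282. Of the 127 genes with a single exon, palbociclib raised 21 and lowered 17, and of the 238 with several exons it raised 59 and lowered 10. These differences between subsets were not tested. The median exon length was 1059 bases, against 5124 in tested protein-coding genes, and the median level 2.01 FPKM against 8.89 FPKM.

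The nearest coding gene was itself tested for 281 lincRNAs. Across these genes, which are not independent replicates and come from the same libraries, the Pearson correlation of the log2 fold changes of a lincRNA and its neighbour was 0.27 with the combination, 0.27 with palbociclib and 0.18 with olaparib. With the combination both were called in 66 pairs, 43 in the same direction and 23 in opposite directions, and in 20 of those 23 the lincRNA was the higher. With palbociclib both were called in 42 pairs, 32 in the same direction. As background, the combination raised 30.1% and lowered 8.22% of the lincRNAs, and raised 21.1% and lowered 40.7% of the protein-coding genes. Palbociclib raised 21.9% and lowered 7.40% of the lincRNAs, and raised 18.8% and lowered 36.1% of the protein-coding genes. Whether the pairs depart from these shares was not tested. An opposite pair is AC007114.1 (AKAP1-DT), whose start lies 68 bases from that of AKAP1, an anchor of protein kinase A at mitochondria. AC007114.1 measured 2.72 and 3.15 FPKM with the combination and 0.899 and 0.990 FPKM with DMSO (log2 fold change 1.02 ± 0.16, limma adjusted p = 0.00127). AKAP1 measured 11.8 and 13.02 FPKM with the combination and 20.8 and 20.7 FPKM with DMSO (−0.70 ± 0.05, adjusted p = 3.85e-05).

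For divergent pairs the correlation was 0.11 with the combination over 79 pairs, and for the other 202 it was 0.30. With palbociclib these values were 0.05 and 0.29, while with olaparib the order was reversed, at 0.26 and 0.17. Over the 52 pairs with the most distant starts the correlation was 0.21 with the combination, 0.25 with palbociclib and 0.10 with olaparib. Over all 281 pairs it was 0.27, 0.27 and 0.18, as given above. Whether the correlation depends on the distance between the genes was not tested. Where exons overlap, reads of the partners may be counted for each other.

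**Figure D5:**
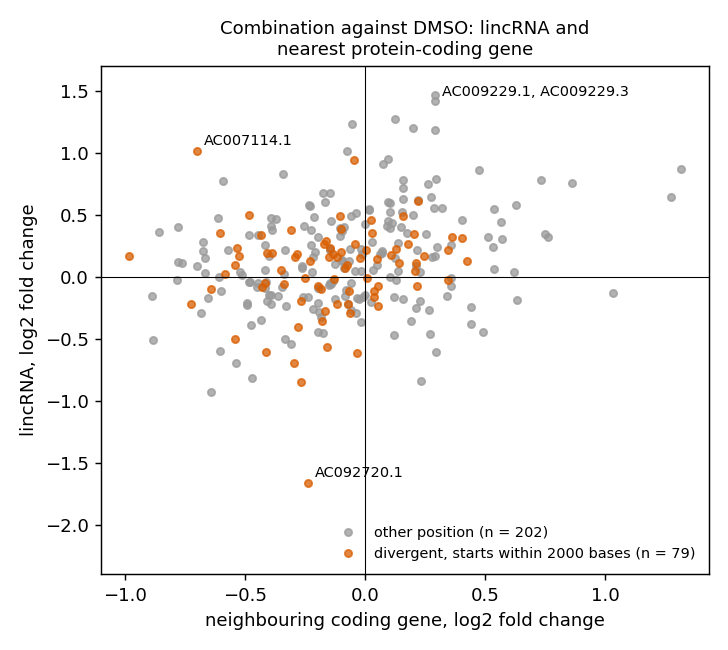
Log2 fold change of each lincRNA (vertical axis) and of its nearest protein-coding gene (horizontal axis), combination against DMSO on the log2(FPKM + 1) scale, for the 281 pairs with a tested neighbour. Orange points are the 79 divergent pairs and grey points the other 202, and AC007114.1, AC092720.1, AC009229.1 and AC009229.3 are named.

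At the edge of the mean of 1 FPKM, AC008736.1 (NUDT19-DT, 1.005 FPKM), AP000894.4 (1.0003 FPKM) and AC087741.2 (1.00004 FPKM) lay just inside, and AC133919.2 (0.999377 FPKM), AL078644.1 (0.999354 FPKM) and FAM66A (0.999021 FPKM) just outside. Of the 365, 179 had a mean of 1 to 2 FPKM, 128 of 2 to 5 FPKM, 42 of 5 to 10 FPKM and 16 of 10 FPKM or more. Palbociclib raised 26 and lowered 9 of the 179, and raised 18 and lowered 10 of the 58 at 5 FPKM or more.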

How the data were processed

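Polyadenylated RNA of 8 libraries (4 groups of 2) was sequenced from NEBNext Ultra libraries, per the labels' protocols. The submitters' processing notes name HTSeq 0.6.0, STAR 2.5.1b and CASAVA 1.8 and the build hg38 (GRCh38), with no role or order, and the sources used here do not give the strand setting. The authors deposited FPKM values for 31721 genes. With GENCODE v29 exon lengths, 28635 genes (90.3%) gave whole reads within 0.01 reads in every library. For 3083 genes a length was searched, and 3 were not recovered.

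Genes with a mean of at least 1 FPKM (12443) entered limma 3.58.1 (R 4.3.3) as log2(FPKM + 1), with all 8 libraries, 1 mean per group, a trend, 4 residual and 3.01 prior degrees of freedom, two-sided, with Benjamini-Hochberg adjustment within each of 6 comparisons and a threshold of 0.05. Alternatives were a pseudocount of 0.1, no filter, quantile normalization, rescaling to a common total, voom on recovered reads, a replicate block and leaving out each library. The fit was also run on simulated data. These had the same small spread setting for every gene, so they cannot show how far the calls above hold. Members and lists were chosen with earlier results of these data known.

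Genes were named when they were among the 12 most abundant, among the 8 highest or lowest called against DMSO with treated libraries on 1 side of both DMSO libraries, among the 6 highest or lowest called in the other comparisons, on a list of known roles, or the 3 on either side of the threshold. Gene positions, types and exon lengths came from GENCODE v29, and promoters and microRNAs from RefSeq (GRCh38.p14). Near-identical copies and overlapping genes are uncertain. Values of a few listed genes are not reported here.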

Additional observations from a re-analysis of the deposited data

How the results depend on the processing

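None of the 109 values of named lincRNAs past the threshold changed direction under any alternative, and 66 stayed past it under all. Leaving out 1 library lost 9 to 29 of them, and dropping the filter lost 32. Counts of called lincRNAs: with olaparib (11), 1 without the filter, 3 after quantile normalization, 20 after rescaling, 25 with voom, and 0 to 12 on leaving out a library; with palbociclib (107), 62 without the filter and 67 to 108 on leaving out a library, lowest without DMSO replicate 2; for the combination against olaparib (122), 59 without the filter and 66 to 114 on leaving out a library, with 66 and 81 without the olaparib libraries and 77 without combination replicate 1; for the combination against palbociclib (1), 3, 3 and 6 after quantile normalization, rescaling and voom, and 0 to 1 on leaving out a library; for the departure from additivity (0), 2 with voom and 0 to 1. Nuclear partner genes with olaparib (20) numbered 4 without the filter, 2 after quantile normalization, 6 after rescaling and 0 to 20 on leaving out a library. The lincRNA shares of FPKM moved by more than their SD without MALAT1 and NEAT1, to 0.475% (combination), 0.445% (palbociclib) and 0.405% (olaparib). The causes were not tested. Same-numbered libraries did not deviate together over all tested genes (correlations −0.0467 to 0.0342), and over the 365 lincRNAs the correlations ran from −0.0368 to 0.211, with only that of palbociclib and olaparib above 0.1. With the number as a replicate block olaparib called 17 lincRNAs, with MALAT1 losing its call with the combination. Depth limits the short genes, since 49 lincRNAs had a median below 20 reads.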
